A study of Mus musculus with 40 samples.

Results

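The 8 genes described here are App, Aplp1, Aplp2, Bace1, Mapt, Picalm, Bin1 and Sorl1, which are named in work on Alzheimer's disease and tau. Every RefSeq transcript of the deposited table that carries 1 of these symbols was taken, whatever its values, which gave 15 of 6831 transcripts and 8 of 5863 gene symbols. Transcripts were described singly and as the sum of the normalised read counts of a gene. The libraries came from the cortex of male C57BL/6 mice aged 12 weeks, with no transgene in the labels. Mice were injected intraperitoneally with saline or memantine, which blocks glutamate receptors of the NMDA type, 1 h before each session of high-frequency impacts to the head (HF-HI) or of handling alone (sham), and RNA was taken 24 h after injury. Each drug was given with and without impact, which made 4 groups (saline sham, memantine sham, saline HF-HI, memantine HF-HI) of 10 libraries. Sham mice were handled and anesthetized like the impacted mice, so all 4 groups share anesthesia and injection. The comparisons ask whether impact, memantine or both together moved the RNA of these genes.

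App encodes the amyloid precursor protein, a membrane protein of neurons and other cells that is cut by the beta-secretase Bace1 and then by gamma-secretase to release amyloid beta. Aplp1 and Aplp2 are its paralogs, which lack the amyloid beta stretch. Mapt encodes tau, a protein that binds microtubules in axons and that is phosphorylated and aggregated in Alzheimer's disease and in chronic traumatic encephalopathy. Picalm (clathrin assembly), Bin1 (membrane curvature) and Sorl1 (a sorting receptor for App) act in endocytosis and endosomal traffic, and all 3 lie at risk loci for Alzheimer's disease.

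Coding exons that tell some of the transcripts apart are shown first, because the values of Aplp2, Mapt and Picalm are split over several transcripts. They were read from the GENCODE M21 transcripts of mouse build GRCm38, the same assembly as mm10, and are written 5′ to 3′ along the gene's own strand. App lies on the minus strand at chr16:84952666-85175255. Its alternative exon of 168 bases, coding exon 7 of NM_001198824 at chr16:85043576-85043743, encodes a Kunitz-type protease inhibitor domain. Aplp2, on the minus strand at chr9:31149557-31211848, has an exon of the same length at the same place in its order, chr9:31167561-31167728. Capitals mark the positions at which both exons hold the same base, which were 114 of 168 (67.9%).
App 168-base exon: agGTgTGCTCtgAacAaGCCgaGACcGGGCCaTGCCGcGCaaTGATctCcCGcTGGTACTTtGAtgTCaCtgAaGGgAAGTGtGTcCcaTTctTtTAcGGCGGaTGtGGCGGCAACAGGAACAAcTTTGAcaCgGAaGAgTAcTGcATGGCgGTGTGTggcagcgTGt
Aplp2 168-base exon: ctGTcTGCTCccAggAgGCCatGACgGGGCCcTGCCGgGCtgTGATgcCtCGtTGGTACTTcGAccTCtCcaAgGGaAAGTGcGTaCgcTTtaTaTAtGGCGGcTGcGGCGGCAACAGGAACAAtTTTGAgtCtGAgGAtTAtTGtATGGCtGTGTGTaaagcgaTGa
The single App transcript in the table, NM_007471, lacks this exon and is the form that neurons chiefly make, so the App exon is shown as the part of the gene that was not measured here. Among the 3 Aplp2 transcripts, NM_001102455 carries the 168-base exon, NM_001102456 carries a 36-base exon further along, at chr9:31156190-31156225, and NM_009691 carries neither. The other exons below are in lower case throughout. Mapt, on the plus strand at chr11:104229409-104332090, has a pair of 87-base exons, coding exons 2 and 3 of NM_001038609 at chr11:104287123-104287209 and chr11:104289908-104289994, which encode the N-terminal inserts of tau. Neither is in the gene model of NM_010838. The exons of NM_001285454 of Mapt are not told apart here, because it shares that gene model. Picalm, on the plus strand at chr7:90130192-90209447, has a 24-base coding exon at chr7:90194273-90194296 that 3 of its 4 transcripts in the table carry and NM_001252521 lacks. Its transcripts also differ in coding exons that are not printed. NM_001252522 lacks a 150-base exon at chr7:90182219-90182368. NM_001252520 holds 117 bases of an exon that has 132 bases in the other transcripts.
Aplp2 36-base exon: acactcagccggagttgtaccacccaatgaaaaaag
Mapt first 87-base exon: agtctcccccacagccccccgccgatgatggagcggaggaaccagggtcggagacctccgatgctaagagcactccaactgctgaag
Mapt second 87-base exon: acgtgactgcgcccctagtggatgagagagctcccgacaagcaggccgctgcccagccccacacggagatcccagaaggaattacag
Picalm 24-base exon: aatggcatgcattttccacaatac
The remaining genes had 1 transcript each in the table, which were NM_007467 for Aplp1 (chr7:30434980-30445582), NM_011792 for Bace1 (chr9:45838545-45862484), NM_009668 for Bin1 and NM_011436 for Sorl1 (chr9:41964709-42124297). RefSeq lists more curated transcripts than the table holds for 7 of the 8 genes, for example 5 for App and 7 for Picalm, so a gene sum covers the transcripts in the table and not the whole gene.

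The 40 libraries held between 13322404 and 17529644 reads on these transcripts, with a median of 15468977. The normalised count is the read count divided by the size factor of the library, and it was recovered from the deposited log2-scale values. The least abundant transcript of the table had a mean of 549.2, where sampling of reads by itself spreads values by 4.27%. Slc17a7, Tbr1, Neurod2, Neurod6, Cux2, Rorb and Bcl11b, which mark cortical excitatory neurons, were in the table, and so were 6 of 8 striatal markers. The summed striatal level ran from 19683 to 33605 in the saline sham libraries and from 19174 to 29505 in the saline HF-HI libraries, and 5 of its 6 genes were lower there at an unadjusted p under 0.05. Of the 5 inhibitory neuron markers (Gad1, Gad2, Slc32a1, Pvalb and Sst), 3 were lower and 1 higher in the same contrast, and their summed level ran from 13338 to 16824 in saline sham and from 12544 to 15746 in saline HF-HI libraries. Of the 8 excitatory neuron markers 1 was higher and 1 lower. In that contrast 5.15% of all gene sums were higher and 5.56% lower. The smallest adjusted p was 0.25 among the striatal and 0.23 among the inhibitory neuron markers (limma). Ttr, a choroid plexus gene, ran from 74.5 to 22031 over the libraries. Whether these values follow the share of other tissue in each dissection was not tested. The limma fits of the 8 genes below, by transcript and by sum, were refitted with the striatal level as the only such covariate. For the other named genes no value from that refit is given. In bulk tissue, fewer cells of a type and less RNA per cell cannot be told apart. The labels do not say that each library is a different mouse, so p-values measure the spread between these libraries.

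Set per length, App was the most abundant of the 8 genes and Bace1 the least. In saline sham libraries App stood at 7130 ± 352 normalised counts per kilobase (SD, n = 10), followed by Aplp1 at 3279 ± 417 and Aplp2 at 2412 ± 53.6. Mapt stood at 1575 ± 180 per kilobase over 2 of its 3 transcripts, and this value is uncertain because the length used for NM_010838, 5253 bases, is that of a GENCODE model linked to 4 accessions, NM_001285454 among them. Bin1 followed at 956 ± 85.2, Sorl1 at 872 ± 62.5, Picalm at 714 ± 41.1 and Bace1 at 305 ± 17.0. Over the saline sham libraries the ranges of neighbours in this order did not overlap, except those of Bin1 with Sorl1 and of Sorl1 with Picalm. A read count is not a number of molecules. Of the reads of Mapt, NM_010838 took 81.5% ± 2.50 in saline sham, and per kilobase of that shared model it stood at 1082 ± 38.1, against 493 ± 181 for NM_001038609, which has a model of its own. That model has 1362 bases, of which 1290 are coding. These values per kilobase, and that of Mapt above, depend on such unlike lengths.

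None of the 15 transcripts and none of the 8 gene sums passed an adjusted p under 0.1 in any of the 6 contrasts (limma, Benjamini-Hochberg over the whole table). The smallest adjusted p was 0.52 among the transcripts and 0.52 among the gene sums. At the unadjusted p under 0.05 that the study used for this experiment, limma called 5 of 90 transcript tests and 1 of 48 gene-sum tests. In HF-HI against sham under saline, 1 of 15 transcripts and 0 of 8 gene sums were called, where 9.53% of all transcripts and 10.7% of all gene sums were. Under memantine the same contrast called 1 transcript and 0 gene sums, against 4.61% and 4.37% of the table. Memantine against saline in HF-HI mice called 1 transcript and 1 gene sum, against 3.91% and 3.65%. In sham mice memantine against saline called 1 transcript and 0 gene sums, against 7.51% and 7.88%. The interaction of impact and drug called 1 transcript and 0 gene sums, against 3.73% and 3.58%, and impact averaged over both drugs called 0 and 0, against 9.66% and 10.8%. These counts lie near the shares of the table as a whole. The contrasts share libraries, since each group enters 2 of the first 4. The median log2 change of the 8 gene sums lay between -0.02 and 0.01 in all 6 contrasts, beside medians of all gene sums that were 0.00 to 2 decimals.

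**Figure D1:**
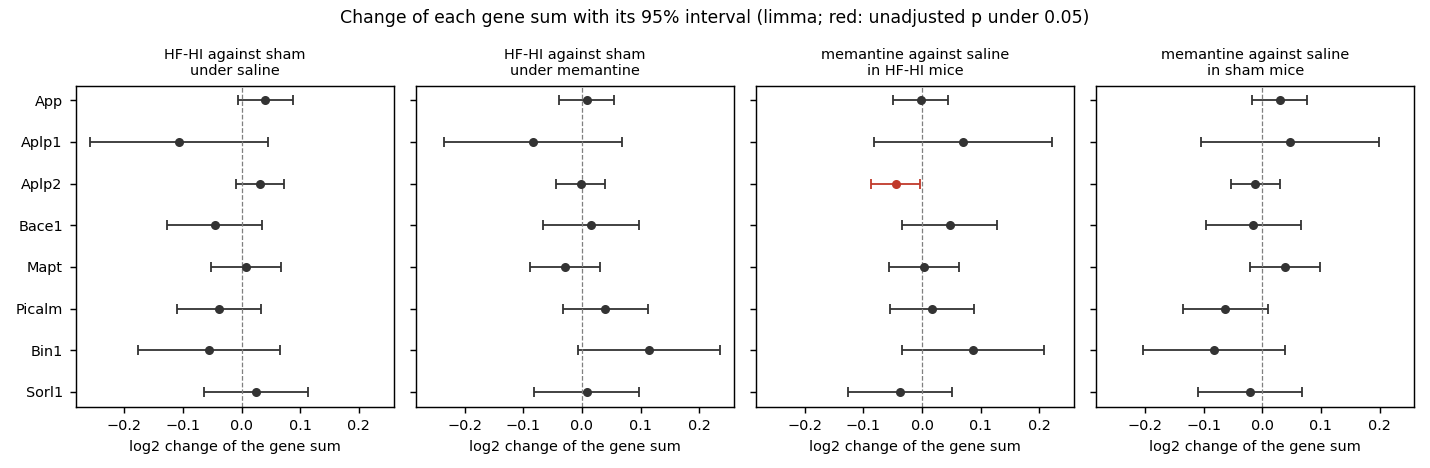
Log2 change of each of the 8 gene sums (x axis) with its 95% interval from limma, in 4 contrasts; red marks an unadjusted p under 0.05. Aplp2 between the drugs in HF-HI mice, at -0.05, is the 1 red point, and every other interval includes 0.

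App was steady across the groups. Its normalised count in saline sham libraries ran from 19982 to 24186 with a median of 22833, and in saline HF-HI libraries from 21899 to 24589 with a median of 23416. Memantine sham libraries ran from 22532 to 23501 with a median of 23075, and memantine HF-HI libraries from 22186 to 24076 with a median of 23288. The groups overlapped throughout, and 1 saline sham library lay well below the rest. Impact under saline changed the App sum by 0.04 ± 0.02 on the log2 scale (SE, limma, p = 0.094, adjusted p = 0.58), with a 95% interval from -0.01 to 0.09. Under memantine the change was 0.01 ± 0.02, with an interval from -0.04 to 0.06. Memantine against saline gave -0.00 in HF-HI mice and 0.03 in sham mice, with intervals from -0.05 to 0.04 and from -0.02 to 0.08. The means of the 4 groups, 22646 to 23274, thus lay within 2.78% of the saline sham mean, and the App transcript measured here is the one without the 168-base exon printed above.

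Aplp1 was the most variable of the gene sums, and its group means were lower after impact under both drugs without passing the test. Saline sham libraries ran from 6277 to 9605 with a median of 7577, and saline HF-HI libraries from 6200 to 8611 with a median of 7005. Memantine sham libraries ran from 6413 to 9790 with a median of 7532, and memantine HF-HI libraries from 6653 to 9396 with a median of 7184. All 4 groups cover nearly the same range. Impact averaged over both drugs gave a log2 change of -0.10 ± 0.05 (limma, p = 0.081, adjusted p = 0.52), with a 95% interval from -0.20 to 0.01. Under saline alone it was -0.11 ± 0.08, with an interval from -0.26 to 0.05.

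**Figure D2:**
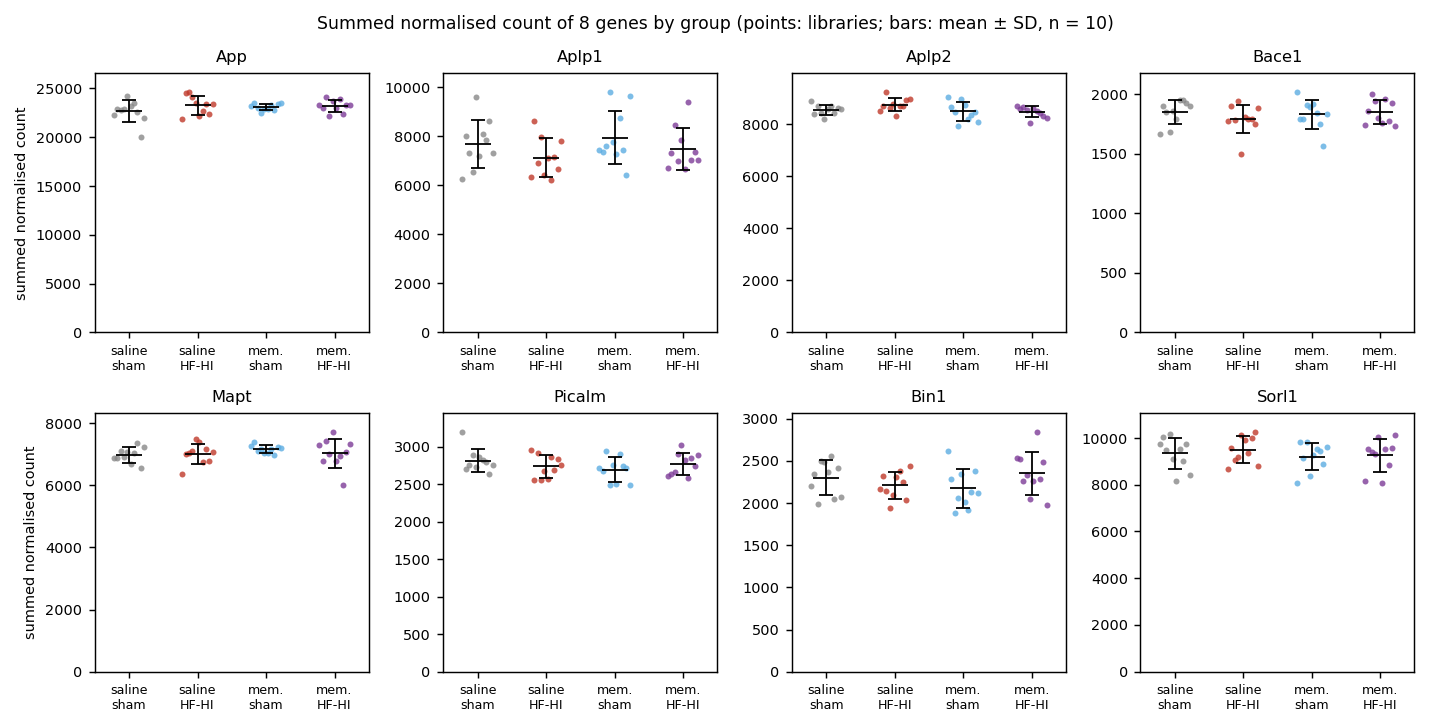
Summed normalised count (y axis, from 0) of each of the 8 genes in the 4 groups, with 1 point per library and bars for mean ± SD (n = 10). The groups overlap for every gene, and Aplp1 spreads most widely while App and Aplp2 spread least.

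Aplp2 was lower in memantine HF-HI than in saline HF-HI libraries by a small amount. Its summed count in saline HF-HI libraries ran from 8296 to 9218 with a median of 8701, and in memantine HF-HI libraries from 8049 to 8716 with a median of 8540. The saline sham libraries ran from 8204 to 8873 with a median of 8573, and the memantine sham libraries from 7943 to 9044 with a median of 8465. The saline HF-HI group had the highest mean, 8744 ± 257 (SD, n = 10), and the other means lay between 8472 and 8554. Memantine HF-HI differed from saline HF-HI by -0.05 ± 0.02 on the log2 scale, or -3.10% of the mean (limma, p = 0.033, adjusted p = 0.997; two-sided permutation p = 0.017). None of the 10 memantine HF-HI libraries lay above the saline HF-HI mean, though only 2 lay below its lowest library. The interaction was not called, at -0.03 ± 0.03 (limma, p = 0.25), so the drug difference in HF-HI mice was not shown to differ from the -0.01 ± 0.02 in sham mice. The summed oligodendrocyte markers, with which Aplp2 went from library to library, stood at 56634 ± 7332 in saline HF-HI and 56641 ± 5398 in memantine HF-HI, and the striatal markers at 23571 ± 2645 and 26284 ± 3820. With group means removed, Aplp2 went with the striatal markers at r = -0.19 (permutation test, adjusted p = 0.54). The part of these cells in the Aplp2 difference between drugs was not tested. The call ended when the striatal level was a covariate (p = 0.081) or the libraries were quantile normalised (p = 0.074). It also ended without saline HF-HI replicate 3 (p = 0.080), 9 (p = 0.055) or 10 (p = 0.059), and without memantine HF-HI replicate 5 (p = 0.078), 9 (p = 0.052) or 10 (p = 0.059).

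The 3 Aplp2 transcripts varied against each other within groups far more than their sum did. NM_001102456, with the 36-base exon, took 48.4% ± 4.26 of the Aplp2 reads in saline sham, NM_001102455, with the 168-base Kunitz exon, took 38.1% ± 2.48, and NM_009691, with neither, took 13.5% ± 2.11. The share of NM_001102456 ran from 39.6% to 54.2% over the saline sham libraries and from 39.5% to 52.7% over the memantine HF-HI libraries. With the group means removed, over the 40 libraries the count of NM_001102455 went with that of NM_001102456 at Pearson's r = -0.70 (rho = -0.71) and with that of NM_009691 at r = 0.69 (rho = 0.70), while NM_001102456 and NM_009691 gave r = -0.67 (rho = -0.66). These transcripts share most of their exons, and the authors' software divides shared reads among them, so counts of transcripts of 1 gene are not independent measurements. No group difference in the share of NM_001102456 passed a permutation test over 4 contrasts, the smallest p being 0.33 for HF-HI against sham under memantine, where the share differed by -1.86 percentage points.

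**Figure D3:**
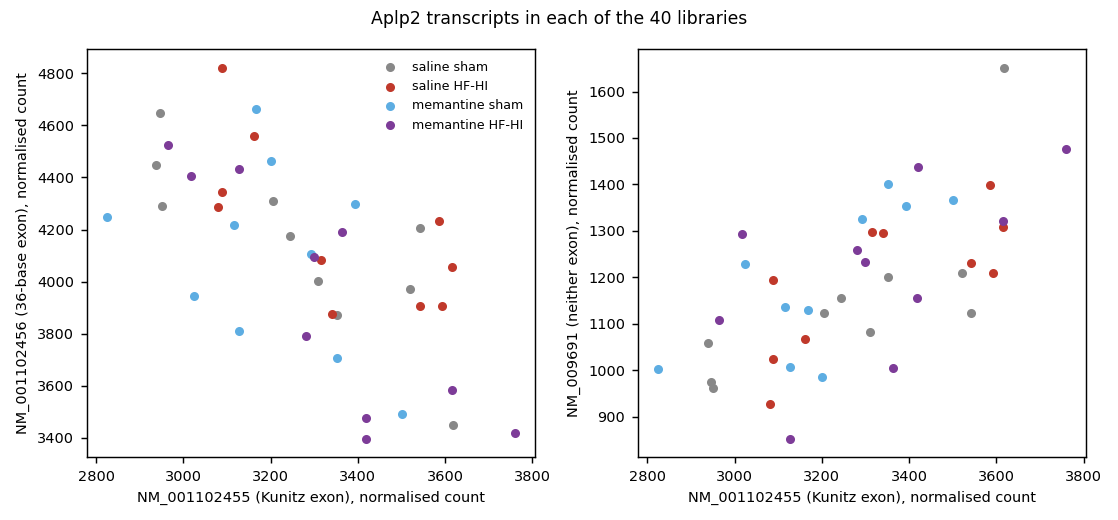
Normalised count of NM_001102455 (x axis) against NM_001102456 (left y axis) and NM_009691 (right y axis), with 1 point per library coloured by group. Over the 40 libraries the first pair goes in opposite directions (r = -0.70 with group means removed) and the second pair together (r = 0.69).

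Bace1, the beta-secretase, was low and did not pass any test. Its count ran from 1667 to 1955 in saline sham (median 1882) and from 1502 to 1941 in saline HF-HI (median 1791). With memantine it ran from 1565 to 2016 in sham (median 1841) and from 1732 to 2005 in HF-HI libraries (median 1831). The groups lay on top of each other, with 1 low library in saline HF-HI. Impact under saline gave a log2 change of -0.05 ± 0.04 (limma, p = 0.26), with an interval from -0.13 to 0.04, and under memantine 0.02 ± 0.04, with an interval from -0.07 to 0.10. The Bace1 sum went with the Aplp1 sum over the 40 libraries at r = 0.62 (rho = 0.65, group means removed), the strongest of the 28 pairs among the 8 genes. The next strongest were Aplp1 with Picalm (r = -0.53) and, at the same size with opposite sign, App with Mapt (r = 0.43) and Aplp2 with Sorl1 (r = -0.43). These are descriptions over libraries that share their normalisation.

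Mapt was level in sum over the groups. Saline sham libraries ran from 6561 to 7369 with a median of 6980, and saline HF-HI libraries from 6356 to 7482 with a median of 7057. Memantine sham libraries ran from 6984 to 7394 with a median of 7171, and memantine HF-HI libraries from 6009 to 7727 with a median of 7044. The memantine sham group was the tightest and sat in the upper part of the saline sham range, and the memantine HF-HI group was the widest. Impact changed the Mapt sum by 0.01 ± 0.03 under saline (limma, p = 0.78), with an interval from -0.05 to 0.07, and by -0.03 ± 0.03 under memantine, with an interval from -0.09 to 0.03. Memantine sham exceeded saline sham by 2.71%, with all 10 libraries above the saline sham mean. That difference gave p = 0.041 in a two-sided permutation test, 1 of 92 such tests over transcripts and gene sums, and p = 0.19 in limma, which pools the spread of the 4 groups, so it was not called.

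The minor tau transcripts varied widely. NM_001038609, which carries both 87-base exons, ran from 484 to 1324 in saline sham (median 580) and from 363 to 999 in saline HF-HI (median 699). With memantine it ran from 418 to 1388 in sham (median 684) and from 443 to 1050 in HF-HI libraries (median 602). The lowest and highest libraries thus lie in different groups. Its coefficient of variation within groups was 34.9%, against 3.81% from counting error and a median of 7.92% over all transcripts. NM_001285454 ran from 416 to 790 in saline sham and from 568 to 847 in memantine sham, a log2 difference of 0.07 ± 0.04 on the deposited scale (limma, p = 0.060, adjusted p = 0.69). NM_010838 held 79.6% to 81.5% of the Mapt reads as a group mean, and no share difference passed the permutation test in 4 contrasts (smallest p = 0.27, memantine sham against saline sham, -1.90 percentage points).

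Picalm gave 4 of the 5 called transcript tests through NM_001252521, the transcript without the 24-base exon, and the fifth through NM_001252520. In saline sham libraries NM_001252521 ran from 505 to 640 with a median of 605, and in saline HF-HI libraries from 430 to 632 with a median of 531. In memantine sham libraries it ran from 481 to 592 with a median of 552, and in memantine HF-HI libraries from 515 to 688 with a median of 624. Under saline the impacted group was the lower one, and under memantine it was the higher one, with all ranges overlapping. HF-HI against sham under saline was -7.83% in the mean count, and -0.04 ± 0.02 on the deposited log2 scale, which is compressed at low counts (limma, p = 0.048, adjusted p = 0.52; permutation p = 0.070). HF-HI against sham under memantine was 12.1%, or 0.05 ± 0.02 (limma, p = 0.0084, adjusted p = 0.97; permutation p = 0.0072), and 7 of 10 memantine HF-HI libraries lay above the highest memantine sham library. The interaction of impact and drug was 0.09 ± 0.03 (limma, p = 0.0016, adjusted p = 0.999), which passes the unadjusted threshold, as 3.73% of all transcripts did, and not the adjusted one. Memantine HF-HI exceeded saline HF-HI by 12.7%, or 0.05 ± 0.02 (limma, p = 0.0053, adjusted p = 1.00), with 5 of 10 libraries above the highest saline HF-HI library. Memantine sham against saline sham was -7.35%, or -0.03 ± 0.02 (limma, p = 0.070; permutation p = 0.027), with 1 of 10 libraries above the saline sham mean.

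The call under saline ended in 25 of the 40 fits without 1 library, with the highest p of 0.13 without saline HF-HI replicate 4, and it ended in 4 of 8 other settings (p = 0.042 to 0.072). The calls under memantine, between drugs in HF-HI mice and of the interaction held in all 40 fits without 1 library and in every setting that kept the transcript. With a mean count of 570 the transcript lies near the lower edge of the table, where counting error alone is 4.19% against a spread of 8.87% within groups.

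The sum of the 4 Picalm transcripts did not pass any test. No group difference in the share of NM_001252520 passed a permutation test in 4 contrasts (smallest p = 0.062, memantine sham against saline sham, -3.04 percentage points). The share of NM_001252521 was not tested. NM_001252520, the largest, ran from 894 to 1343 in saline sham (median 1079) and from 779 to 1156 in memantine sham (median 927), with 5 of 10 memantine sham libraries below the lowest saline sham library. This difference, the same in sign as that of NM_001252521, was -11.7%, or -0.07 ± 0.03 on the deposited scale (limma, p = 0.029, adjusted p = 0.63; permutation p = 0.053). That call ended without saline sham replicate 1 (p = 0.076) or 4 (p = 0.052) and without memantine sham replicate 2 (p = 0.051), 4 (p = 0.058), 6 (p = 0.063) or 10 (p = 0.067). HF-HI against sham under saline was -8.03% for NM_001252520 and was not called, and the other contrasts in impacted mice gave 1.86% for HF-HI against sham under memantine and -2.17% for memantine against saline. NM_001252522 lay between 466 and 825 and NM_146194 between 465 and 808 over all libraries, and neither was called in any contrast. Within groups NM_001252521 went with NM_001252522 at r = -0.64 (rho = -0.50) and with NM_146194 at r = 0.60 (rho = 0.64). The Picalm sum had group means of 2815 ± 154 (sham) and 2740 ± 152 (HF-HI) with saline, and of 2695 ± 162 and 2771 ± 147 with memantine. Its interaction was 0.08 ± 0.05 on the log2 scale (limma, p = 0.12), with an interval from -0.02 to 0.18. Since reads shared by these transcripts were divided by software, a difference in NM_001252521 that the sum does not show is uncertain.

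**Figure D4:**
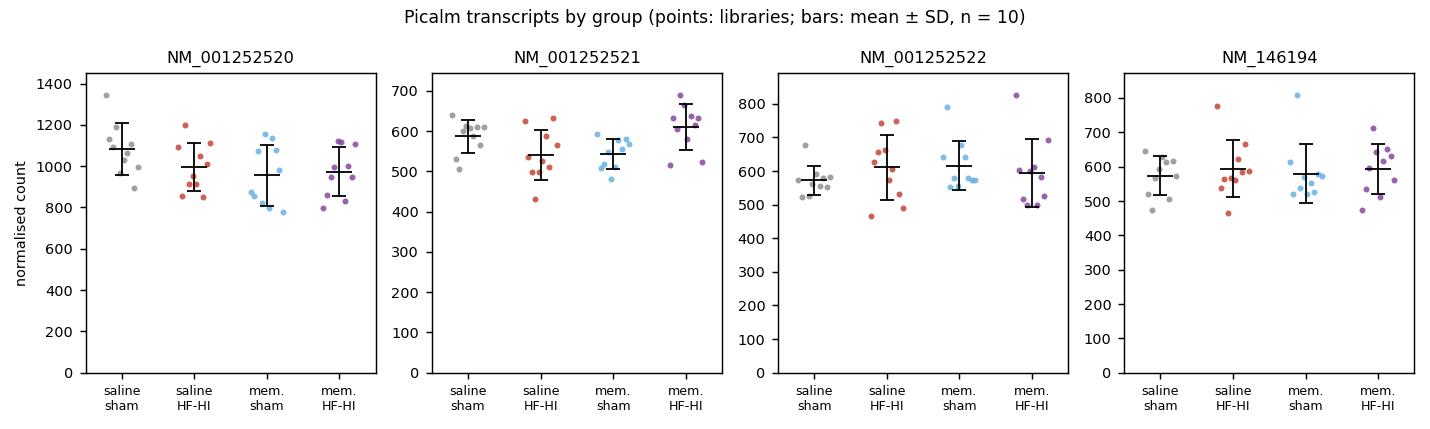
Normalised count (y axis, from 0) of the 4 Picalm transcripts in the 4 groups, with 1 point per library and bars for mean ± SD (n = 10). NM_001252521 has group means of 587, 541, 544 and 610 from left to right, and NM_001252520 is highest in saline sham at 1081.

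Bin1 (plus strand, chr18:32376618-32435740) had the largest interaction of the 8 sums and did not pass the test. It ran from 1994 to 2560 in saline sham (median 2360) and from 1947 to 2439 in saline HF-HI (median 2210). With memantine it ran from 1883 to 2621 in sham (median 2126) and from 1973 to 2845 in HF-HI libraries (median 2304). Impacted libraries were on average the lower ones under saline and the higher ones under memantine, with wide overlap. The interaction was 0.17 ± 0.08 (limma, p = 0.051, adjusted p = 0.999), with an interval from -0.00 to 0.34, and impact under memantine was 0.11 ± 0.06 (p = 0.065). The interaction passed the unadjusted threshold with the striatal covariate (p = 0.029), under quantile normalisation (p = 0.047) and with a replicate block (p = 0.049). These were 3 of 7 other settings, over which the limma p ran from 0.029 to 0.054. It passed in 15 of the 40 fits without 1 library, over which p ran from 0.018 to 0.095.

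Sorl1 was level over the groups. It ran from 8155 to 10190 in saline sham (median 9508) and from 8670 to 10268 in saline HF-HI (median 9480). With memantine it ran from 8096 to 9833 in sham (median 9368) and from 8075 to 10115 in HF-HI libraries (median 9457). The 4 medians lie within a span far smaller than the range inside any group. Impact gave 0.02 ± 0.04 under saline (limma, p = 0.58), with an interval from -0.06 to 0.11, and 0.01 ± 0.04 under memantine, with an interval from -0.08 to 0.10.

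For Aplp2, Mapt and Picalm, the genes with several transcripts, the spread between libraries within groups was smaller for the sum than for each transcript. The coefficient of variation of the sum was 3.08% for Aplp2, 3.53% for App, 4.48% for Mapt, 5.59% for Picalm, 6.11% for Bace1, 6.81% for Sorl1, 9.54% for Bin1 and 12.4% for Aplp1, beside a median of 6.59% over all gene sums. The 3 Aplp2 transcripts by contrast varied by 7.10%, 8.96% and 14.7%, and the 4 Picalm transcripts by 8.87% to 13.8%. Of the 15 transcripts, 10 lay above the median of 7.92% of all transcripts, and every one exceeded its counting error. In the plot of changes the intervals are accordingly widest for Aplp1 and narrowest for Aplp2.

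**Figure D5:**
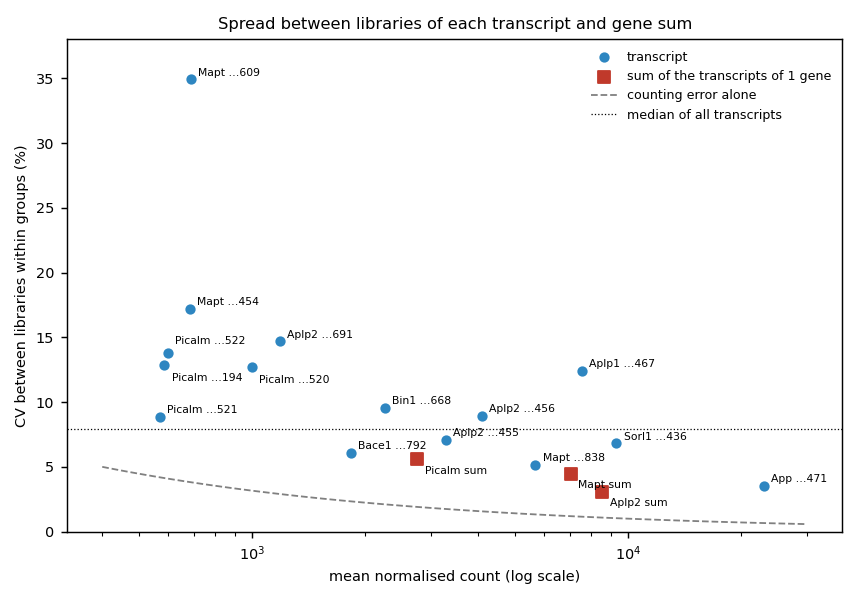
Coefficient of variation between libraries within groups (y axis, %) against mean normalised count (x axis, log scale) for the 15 transcripts (circles, labelled by the last digits of the accession) and the 3 sums of several transcripts (squares). The dashed line is counting error and the dotted line the median of all transcripts, 7.92%; the sums of Aplp2, Mapt and Picalm lie below each of their own transcripts.

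Levels of 2 of the genes went with glial marker levels from library to library. In 32 relations (8 gene sums against the mean level of 4 marker lists, group means removed, 40 libraries, permutation tests), 3 had a Benjamini-Hochberg adjusted p under 0.1 for Pearson's r. Aplp2 went with the 7 oligodendrocyte markers at r = 0.53 (permutation p = 0.00030, adjusted 0.0048) and rho = 0.64 (p = 2e-05, adjusted 0.00048), and r was 0.54 without the 2 libraries farthest from the median marker level. Aplp2 also went with the 6 astrocyte markers at r = 0.48 (permutation p = 0.0014, adjusted 0.015) and rho = 0.43 (p = 0.0051, adjusted 0.055), with r = 0.47 without 2 libraries. Sorl1 went against the astrocyte markers at r = -0.56 (permutation p = 0.00013, adjusted 0.0042) and rho = -0.63 (p = 3e-05, adjusted 0.00048), with r = -0.52 without 2 libraries. The summed oligodendrocyte level ran from 45269 to 70358 over all libraries and the astrocyte level from 106239 to 122776, with group means of 56562 to 58714 and of 115124 to 116942. App, Aplp1, Bace1, Mapt, Picalm and Bin1 had no adjusted p under 0.1 with these lists. None of the 8 genes had one with the cortical excitatory neuron markers or the striatal markers. Nearest was Bin1 with the excitatory neuron markers (r = -0.36, permutation test, adjusted p = 0.17). The inhibitory neuron, microglial and endothelial lists were not examined in this way. The labels give no batch, so no values within batches can be given.

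Among all 5863 symbols, those most like each of the 8 genes from library to library were as follows, by Pearson's r of log2 sums over 40 libraries with group means removed and with no test. Aplp1 was most like Git1 (r = 0.94, rho = 0.91), Crtc1 (r = 0.93), a coactivator of CREB, and Cic (r = 0.93), a transcriptional repressor. Sorl1 was most like Vxn (r = 0.84, rho = 0.78), Diras2 (r = 0.82) and Cemip (r = 0.82). Aplp2 was most like the nuclear receptor Rora (r = 0.82, rho = 0.85), Plekhg1 (r = 0.80) and the phosphatase Ptpn3 (r = 0.79), and Bace1 most like Plppr2 (r = 0.77, rho = 0.70), Disp2 (r = 0.72) and the semaphorin receptor Plxnb1 (r = 0.70). The remaining likenesses were looser. Picalm was most like Kdm5a (r = 0.64), Ddx42 (r = 0.62) and Pcdhb16 (r = 0.60), and App most like Dennd6a (r = 0.60, but rho = 0.26), Rab11fip5 (r = 0.59) and Eef1a2 (r = 0.59, rho = 0.65). Mapt was most like the GABA receptor subunit Gabbr2 (r = 0.54, rho = 0.34), the potassium channel Kcnj6 (r = 0.52) and Prkag2 (r = 0.52), and Bin1 most like complement gene C4b (r = 0.52), Aamp (r = 0.52) and Wdr13 (r = 0.48).

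For several of the genes, likeness moved with the base composition of the transcripts. Aplp1 transcripts are 60.2% G and C, above 96.7% of genes with a value, and its 3 most like genes lie between 58.9% and 62.0%, where the median gene has 49.2%. The median r with Aplp1 was 0.54 over the genes richest in G and C (at least 57.5%) and -0.41 over the poorest (at most 41.5%). Picalm, at 41.9%, showed the reverse, with medians of -0.32 and 0.25. Bace1, which is richer than 54.5% of genes, was tilted like Aplp1, with medians of 0.32 over the richest and -0.28 over the poorest genes. The medians of App, Aplp2, Mapt and Sorl1 lay between -0.21 and 0.22, and the 3 genes most like App spanned 41.7% to 60.6%. Bin1 (58.0%) showed no tilt, with medians of 0.03 and -0.02, although it is nearly as rich as Aplp1. The part of base composition in the levels was not tested.

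The other genes of the same pathways were followed through 6 lists, 100 of whose 124 symbols were in the table. In HF-HI against sham under saline, 11 of the 100 sums were called, with 4 higher and 7 lower, where 5.15% of all gene sums were higher and 5.56% lower. The median log2 change of the 100 was 0.00, as over all sums. Under memantine 3 were called (1 higher, 2 lower), against 2.29% and 2.08%. Memantine against saline called 4 in HF-HI mice (1 higher, 3 lower), against 1.43% and 2.22%, and 9 in sham mice (5 higher, 4 lower), against 3.82% and 4.06%. The interaction called 1, which was lower, against 1.81% higher and 1.77% lower. Impact averaged over both drugs called 13 (5 higher, 8 lower), against 5.17% and 5.68%. Each count lies near the share of the table. These counts are from fits without the striatal covariate. With it, HF-HI against sham under saline called 367 of 5863 gene sums, against 628 without it. The pathway lists were not counted in that fit.

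By role, the 31 measured genes of App adaptors, sorting and endocytosis had 5 called under saline impact (1 higher, 4 lower), 1 under memantine impact and 4 between drugs in sham mice (2 higher, 2 lower), where 10.7%, 4.37% and 7.88% of all gene sums were called. Sorcs2, a sorting receptor of the Sorl1 family, was 1128 ± 83.4 in saline sham and 1006 ± 74.7 in saline HF-HI (SD, n = 10), a log2 change of -0.17 ± 0.05 (limma, p = 0.0034, adjusted p = 0.22). Ap2b1, a subunit of the clathrin adaptor, was lower than the 8477 ± 239 of saline sham in saline HF-HI at 8181 ± 274 (log2 -0.05 ± 0.02, limma p = 0.0067, adjusted p = 0.27) and in memantine sham at 8114 ± 187 (log2 -0.06 ± 0.02, limma p = 0.0011, adjusted p = 0.32). These 2 contrasts share the saline sham libraries. Vps26b, a retromer subunit, was lower under memantine impact (log2 -0.04 ± 0.02, limma p = 0.050, adjusted p = 0.96). Of 5 measured genes for amyloid degradation and lipid carriers, 1 was called under each drug, against 10.7% of all sums under saline and 4.37% under memantine. Abca1, the cholesterol transporter that loads apolipoprotein E, was 2034 ± 200 in saline sham and 2269 ± 173 in saline HF-HI (log2 0.16 ± 0.05, limma p = 0.0051, adjusted p = 0.24), and 2009 ± 158 and 2215 ± 180 in the memantine groups (log2 0.14 ± 0.05, limma p = 0.013, adjusted p = 0.96). Averaged over both drugs Abca1 was higher after impact by 0.15 ± 0.04 (limma, p = 0.00033), with an adjusted p of 0.078, under 0.1 where none of the 8 genes was. An adjusted p under 0.1 was reached by 52 of 5863 gene sums in this contrast. With the striatal level as a covariate 8 gene sums reached it, and whether Abca1 was among them was not tested. In that contrast 2 of the 6 astrocyte markers and 2 of the 5 measured microglial markers were also higher at an unadjusted p under 0.05 and none was lower. Of all gene sums, 5.17% were higher and 5.68% lower at that threshold. The smallest adjusted p was 0.020 among the astrocyte markers and 0.16 among the microglial markers (limma). The summed microglial level ran from 4345 to 5347 in saline sham, 4738 to 5332 in saline HF-HI, 4448 to 5234 in memantine sham and 4401 to 5596 in memantine HF-HI libraries, and the summed astrocyte level from 106239 to 122776, 112429 to 119793, 114499 to 119469 and 109208 to 118972 in the same order. The part of these cells in the Abca1 difference was not tested.

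Of 23 measured tau kinases and phosphatases, 1 was called under saline impact, 1 under memantine impact, 2 between drugs in HF-HI mice and 1 in sham mice, where 10.7%, 4.37%, 3.65% and 7.88% of all gene sums were. Ppp5c, a phosphatase that acts on tau, was 1374 ± 80.9 in saline HF-HI and 1293 ± 37.3 in memantine HF-HI (log2 -0.09 ± 0.03, limma p = 0.0062, adjusted p = 0.997), and its interaction was -0.12 ± 0.04 (limma p = 0.0068, adjusted p = 0.999). Memantine sham stood at 1355 ± 41.5 for Ppp5c, so the memantine HF-HI group was the lowest of these 3, and saline sham is not given here. HF-HI against sham under memantine was -0.07 ± 0.03 for Ppp5c (limma p = 0.028, adjusted p = 0.96). Among 12 other microtubule-associated proteins, 2 were called under saline impact (1 higher, 1 lower), 0 under memantine impact, 1 between drugs in HF-HI mice and 0 in the interaction, where 10.7%, 4.37%, 3.65% and 3.58% of all gene sums were. Between drugs in sham mice 3 were called, all higher under memantine, where 7.88% of all sums were called and 3.82% were higher. They included Stmn2 at 2886 ± 141 against 2744 ± 73.1 (log2 0.07 ± 0.03, limma p = 0.0089, adjusted p = 0.51) and Stmn1 at 6147 ± 223 against 5817 ± 371 (log2 0.08 ± 0.03, limma p = 0.015, adjusted p = 0.57). Map6 was higher in memantine HF-HI than in saline HF-HI, at 1924 ± 239 against 1713 ± 160 (limma p = 0.042, adjusted p = 0.997), and Map1b was lower after impact averaged over drugs (log2 -0.04 ± 0.01, limma p = 0.0036, adjusted p = 0.18). Stmn1 (-0.09 ± 0.05, limma p = 0.055) and Aph1b (0.10 ± 0.05, limma p = 0.064) came next in the interaction and were not called. Of 25 other neurodegeneration genes, 2 were called under saline impact, both lower, 0 under memantine impact and 1 in each contrast between drugs, where 10.7%, 4.37%, 3.65% in HF-HI mice and 7.88% in sham mice of all sums were. Among them was Celf1 at 3435 ± 429 in memantine HF-HI against 3726 ± 263 in saline HF-HI (limma p = 0.045, adjusted p = 0.997).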

How the data were processed

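The authors sequenced 40 libraries of mouse cortex RNA, made stranded after depletion of ribosomal RNA and read in pairs. The paper names STAR, eXpress (reads per transcript, with shared reads divided among transcripts) and DESeq2, and the submitters' processing notes name HISAT2 and StringTie, both with build mm10, so the aligner and counter of this table are uncertain. The deposited values are on the log2 scale of the authors' variance-stabilising transformation. Its inversion at the floor of 10.36 gave normalised counts, and 100% of the values below 5000 (92.4% of all) were then whole reads within 0.05 after undoing size factors of 0.859 to 1.141. The table holds 6831 transcripts with mean counts of at least 549.2, of which 99.82% matched a RefSeq or GENCODE symbol. The design text speaks of 4 samples per group, and the labels and the table give 10. No libraries of the same group were duplicates (other pairs were not compared), and no column belonged to other samples.

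limma 3.58.1 in R 4.3.3 (lmFit, eBayes with a trend, 1 term per group, 40 libraries) was fitted to the deposited values of all transcripts and to log2(summed count + 1) of all 5863 symbols. The pseudocount of 1 was added after the files were seen, because 37 sums were 0 in a library. All tests were two-sided, with Benjamini-Hochberg adjustment over the whole table, and permutation tests used 100000 resamples (Python 3.11.15, numpy 2.4.6). The fit was tested on simulated data. The named genes were all 15 transcripts and 8 sums, the 3 pathway genes with the smallest p per contrast and the 3 symbols most like each gene. Pathway and marker lists were read as counts. The results of some lists are not reported here. Members, lists and rules were chosen with earlier results of these data known. Alternatives changed the scale, normalisation, filter (mean count of at least 1000), variance prior, striatal covariate, groups fitted and replicate block, and left out each library in turn. limma-voom on the recovered reads was added after seeing the data.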

Additional observations from a re-analysis of the deposited data

Results flagged for a closer look

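A library stood apart from the other 9 of its group by Dixon's criterion at the 95% level for 8 of 72 groups of values (15 transcripts and 3 sums of several transcripts in 4 groups). Chance marks about 1 in 20 groups, and transcripts of 1 gene share reads, so these are not independent. In saline sham, NM_001038609 of Mapt was highest in replicate 8 at 1324.37 normalised counts, where the next library had 755. NM_009691 of Aplp2 was highest in replicate 7 at 1650.77 (next 1209), NM_001252522 of Picalm in replicate 3 at 678.531 (next 592), and the Picalm sum in replicate 1 at 3199.59 (next 2883). App (NM_007471) was lowest in saline sham replicate 9 at 19981.5, where the next library had 22010, and without that library the App change after impact under saline went from p = 0.094 to p = 0.31 (limma). Without saline sham replicate 5 or saline HF-HI replicate 1 it passed the unadjusted threshold instead, at p = 0.033 and p = 0.039, and these were 2 of 40 such fits. In saline HF-HI, Bace1 (NM_011792) was lowest in replicate 5 at 1501.71 (next 1749). In memantine sham, NM_001252522 of Picalm was highest in replicate 2 at 789.296 (next 676) and NM_146194 in replicate 3 at 807.518 (next 614).

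NM_001252521 of Picalm was lower after impact under saline and higher under memantine, and the difference between these changes passed the unadjusted threshold: the interaction was 0.0887 on the deposited log2 scale (limma, p = 0.0016). It did not pass after adjustment (p = 0.999), and 3.73% of all transcripts passed the same unadjusted threshold.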

How the results depend on the processing

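Counts of the 15 transcripts and 8 gene sums at an unadjusted p under 0.05 changed in the settings below, and the cause was not tested except where the filter removes the transcript. For transcripts, the filter at a mean count of 1000, which leaves out NM_001252521, turned 1 into 0 for impact under saline, impact under memantine, memantine against saline in HF-HI mice and the interaction. Impact under saline also went from 1 to 0 with libraries centred on their median, with only the 2 groups fitted, with the replicate block and with voom. Quantile normalisation gave 2 for impact under memantine and 2 for the interaction, median centring and the striatal covariate each gave 2 for the interaction, and fitting only 2 groups gave 2 for memantine against saline in sham mice. For gene sums, quantile normalisation gave 1 for impact under memantine, 1 for the interaction and 0 for memantine against saline in HF-HI mice, the striatal covariate gave 1 for the interaction and 0 for memantine in HF-HI mice, and the replicate block gave 1 for the interaction. Leaving out each library in turn gave 0 to 1 for every gene-sum count and for transcripts in impact averaged over drugs, 0 to 2 for impact under saline, 1 to 2 for impact under memantine, memantine in HF-HI mice and the interaction, and 0 to 3 for memantine in sham mice. The 0 called share tests stayed 0 on the logit scale and in the paired exact sign-flip test. No called change reversed, and the sign of a change that was uncalled in both fits was not counted as a reversal (170 of 6275). Same-numbered libraries did not pair: of 60 such pairs 4 had a correlation of deviations over 0.1 (range -0.13 to 0.16), and 3 of 40 libraries matched their own number best, so the replicate block is only another setting. voom, added after seeing the data, called 614 of 6831 transcripts under saline impact against 651. Transcripts with low counts limit what can be seen, since counting error at a mean count of 549.2 is 4.27%.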
